A study of Homo sapiens with 12 samples.

Results

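The 4 libraries described here carry the name of LNCaP, a human prostate cancer line that grows with androgen. Of the 12 libraries in the series, 2 were titled LNCaP with R1881 and 2 were titled LNCaP with R1881, namoline and TCE-5002, and all 4 were used. R1881 is a synthetic androgen, given to every library of the series at 1 nM, with vehicle in the control group per the study's methods. Namoline, an inhibitor of the lysine demethylase KDM1A, was listed at 50 µM. Cells were treated for 72 h. The other compound, TCE-5002, is directed at the demethylase KDM7A and was listed at 100 µM in the series description and at a lower dose in the study's methods, so its dose is uncertain. No sequenced library of this label had a single inhibitor, so the parts of the 2 compounds cannot be told apart in these data. The remaining 8 libraries were titled LNCaP:C42 (C4-2 below, a castration-resistant derivative of LNCaP), and those with R1881 alone or with both inhibitors served as the comparison. The study's methods call the 2 libraries of a group biological replicates without naming separate cultures, so each p-value below measures the spread between these libraries.

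KDM1A removes methyl groups from mono- and dimethylated lysine 4 or lysine 9 of histone H3, and works in complexes with CoREST proteins and histone deacetylases. KDM7A, which belongs to a family with PHF8 and PHF2, removes repressive methyl marks from lysine 9 and lysine 27 of the same histone. In prostate cells KDM1A is known as a partner of the androgen-bound receptor at genes such as KLK3, which encodes prostate-specific antigen. Per the study, TCE-5002 also targets PHF8 (KDM7B) and KDM2A, so the response cannot be assigned to KDM1A and KDM7A alone. The comparison addresses what happens to transcripts when both inhibitors are given while androgen is present.

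A disagreement in the records comes before any result. The header of the count table for combination replicate 1 names an alignment with namoline but without TCE-5002, although its title and characteristics name both compounds. The header of combination replicate 2 names both. The group was kept as labelled, and the total and list counts are also given without combination replicate 1. The treatment protocol in the labels describes gene silencing by siRNA, whereas titles and characteristics name the compounds, and the groups were taken from these. Totals were 15838376 to 20690819 counts over the 4 libraries, with 25691 to 27920 genes detected. Replicates correlated across genes at r 0.992 for R1881 and 0.988 for the combination (log2 CPM; a correlation over genes, which do not act as replicates). Of 10451 genes over 10 CPM (counts scaled to library size by TMM), 1 differed at least 2-fold between the R1881 replicates and 1 between the combination replicates. The difference between the combination replicates moved with the GC content of transcripts (Spearman rho 0.63 over 10436 genes), and that between the R1881 replicates less so (0.17).

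The label was set against cell type markers, with levels in this paragraph scaled over all 12 libraries. KLK3 stood at 397 and 355 CPM in the R1881 libraries, against 206 and 228 CPM in C4-2 with R1881. Prostate markers were therefore present, but 11 of the 13 in the luminal list lay below C4-2. FOLH1, which encodes prostate-specific membrane antigen, was at 36.8 and 35.0 CPM against 889 and 867 CPM. The 14 epithelial markers all lay below C4-2, at a median of 5.08% of its level. E-cadherin (CDH1) was at 44.6 and 39.6 CPM against 949 and 1007 CPM, and the adhesion molecule EPCAM at 4.01 and 3.51 CPM against 139 CPM in each C4-2 library.

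Of 14 mesenchymal markers, 11 were at 1 CPM or more in all 4 libraries and 2 lay below C4-2, among them the collagen gene COL1A1, at 4.89 and 4.01 CPM against 49.5 and 50.9 CPM. The intermediate filament gene VIM was at 641 and 733 CPM with R1881 and at 610 and 648 CPM with the combination, against 2.62 and 2.28 CPM in C4-2. N-cadherin (CDH2) was at 51.4 and 47.9 CPM and at 0 in both C4-2 libraries, and the repressor SNAI2 at 79.6 and 76.1 CPM against 2.02 and 2.47 CPM. Some neuronal transcripts were also present, with NCAM1 at 112 and 109 CPM. Fibroblast and endothelial markers were near 0, with 5 of 6 in each list under 1 CPM in all 4 libraries, and the leukocyte gene PTPRC was at 0. Summed over the luminal list, levels were 940 to 1035 CPM with R1881 and 421 to 537 CPM with the combination. The part of this unusual marker profile in the results below was not tested, and fewer cells of a type and less RNA per cell cannot be told apart in bulk libraries. The groups are written as the libraries labelled LNCaP.

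**Figure D1:**
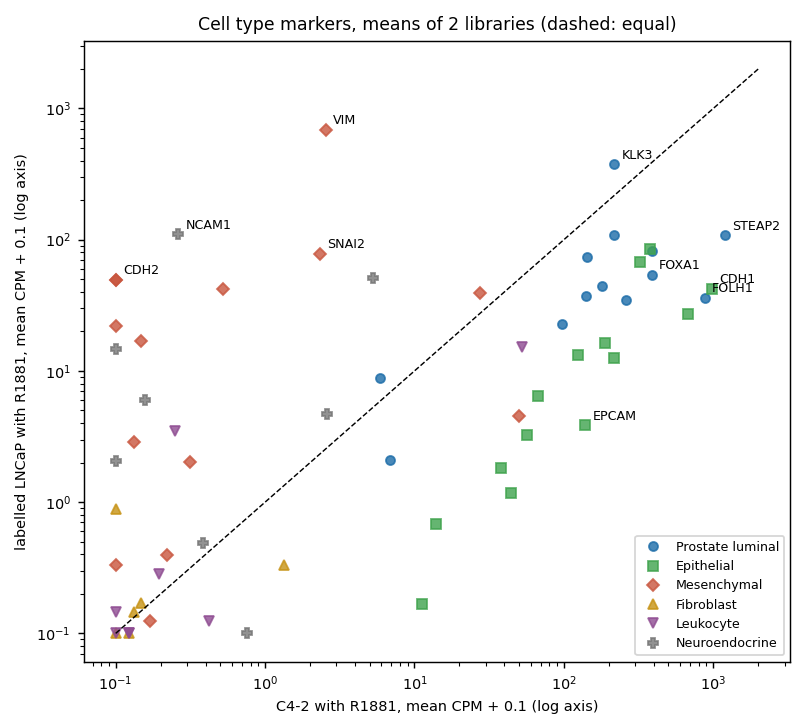
Mean level of cell type markers (CPM + 0.1, both axes logarithmic) in the libraries labelled LNCaP with R1881 against C4-2 with R1881, each point 1 gene and the mean of 2 libraries per group. All 14 epithelial markers lie below the dashed line of equal level, while VIM, CDH2, SNAI2 and NCAM1 lie far above it.

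With both inhibitors, 1306 of 17565 genes were at least 2-fold higher (7.44%) and 1987 at least 2-fold lower (11.3%) at an adjusted p under 0.05 (edgeR quasi-likelihood test). With the adjusted p alone, 28% of the genes were higher and 28.2% lower, and for 77.6% of genes the 2 groups of libraries did not overlap. Shares of a gene list are read against these values. Without combination replicate 1, 3518 genes passed in place of 3293, and 84.6% of the 3293 kept their call in the same direction. With an offset for GC content 74.6% of them kept it.

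Among protein-coding genes that reached 10 CPM in the higher group and whose groups did not overlap, the 12 largest falls were in SERTAD1, ITGA10, SNORC, DHRS2, INHBB, EPHB3, DDIT4, CD101, GRIK5, GNB3, SLC35E4 and ADAT3, with log2 fold changes from -3.79 to -2.80. The 12 largest rises under the same limits were in ATP6V0D2, FAM216A, SLC6A6, CARMIL3, ZNF33B, BCHE, EID2B, POLE2, RPL22L1, TFRC, ABRAXAS1 and RABGGTB, from 2.17 to 3.003. All 24 stayed past the threshold with the GC offset. They were picked as the largest changes in these same libraries, so this is little added support. Of the falling genes 7 overlapped another annotated gene, and of the rising genes 6, so reads of either gene could not be assigned by strand. SNORC overlaps GIGYF2, GNB3 overlaps CDCA3 and FAM216A overlaps GPN3.

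SERTAD1 (chromosome 19, 40421592 to 40426025), which encodes a stimulator of the cyclin D kinase CDK4, was at 28.0 and 26.8 CPM with R1881 and at 2.29 and 1.70 CPM once both inhibitors were added. On the log2 scale it fell by 3.79 (SE 0.20, edgeR adjusted p 1.82e-16). DDIT4 (chromosome 10, 72273920 to 72276036), a stress-induced inhibitor of the growth kinase mTORC1, was at 405 and 377 CPM and then at 46.8 and 42.2 CPM (-3.14, SE 0.11, edgeR adjusted p 1.64e-20). INHBB (chromosome 2, 120346143 to 120351808), which encodes the beta B subunit of activins and inhibins, was at 14.2 and 13.5 CPM and then at 1.63 and 1.31 CPM (-3.23, SE 0.24, edgeR adjusted p 6.59e-13).

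Among the rises, TFRC (chromosome 3, 196027183 to 196082189), the transferrin receptor that brings iron into the cell, went from 56.0 and 51.4 CPM to 248 and 242 CPM (2.19, SE 0.11, edgeR adjusted p 5.38e-17). POLE2 (chromosome 14, 49643555 to 49688422), a subunit of DNA polymerase epsilon, went from 8.64 and 6.97 CPM to 33.2 and 39.4 CPM (2.22, SE 0.15, edgeR adjusted p 1.63e-13). Groups that do not overlap were a condition for entry, so their separation in these genes is no added support. ATP6V0D2 (chromosome 8, 85987323 to 86154228), a subunit of the proton pump that acidifies lysosomes, was low in the controls, at 1.45 and 1.41 CPM, and rose to 12.2 and 10.8 CPM (3.003, SE 0.25, edgeR adjusted p 5.67e-12). SLC6A6, the taurine transporter, rose from 4.39 and 4.71 CPM to 27.0 and 24.7 CPM.

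**Figure D2:**
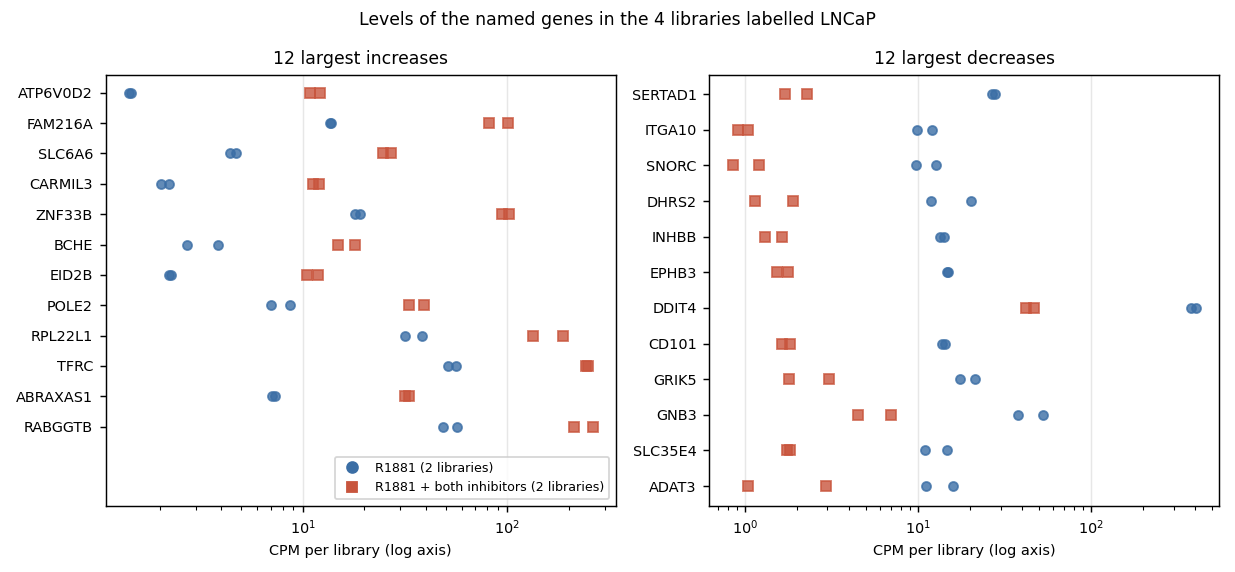
Level of the 12 genes with the largest increase (left) and the 12 with the largest decrease (right) in each of the 4 libraries labelled LNCaP, on a logarithmic CPM axis, with circles for R1881 and squares for R1881 with both inhibitors. Groups that do not overlap were a condition for entry, so the plot shows size only; DDIT4 goes from 405 and 377 to 46.8 and 42.2 CPM.

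The promoters of 2 leading falling genes and 2 leading rising genes are shown, chosen after their values were seen, because each pair moved together and the pairs moved apart. Each run is read 5′ to 3′ on the gene's strand from 250 bases before to 50 bases after the RefSeq start (GRCh38.p14). Capitals mark the GC box GGGCGG on either strand, where neighbouring matches may overlap. The windows are chr19:40425943-40426242 (minus strand) for SERTAD1, chr2:120345886-120346185 (plus) for INHBB, chr3:196082041-196082340 (minus) for TFRC and chr14:49688165-49688464 (minus) for POLE2.
SERTAD1: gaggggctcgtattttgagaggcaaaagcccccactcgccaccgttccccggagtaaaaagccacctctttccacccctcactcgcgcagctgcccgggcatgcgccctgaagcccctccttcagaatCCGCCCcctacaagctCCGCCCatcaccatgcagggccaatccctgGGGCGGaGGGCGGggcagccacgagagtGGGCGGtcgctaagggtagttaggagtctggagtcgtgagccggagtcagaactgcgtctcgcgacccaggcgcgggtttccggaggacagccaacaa
INHBB: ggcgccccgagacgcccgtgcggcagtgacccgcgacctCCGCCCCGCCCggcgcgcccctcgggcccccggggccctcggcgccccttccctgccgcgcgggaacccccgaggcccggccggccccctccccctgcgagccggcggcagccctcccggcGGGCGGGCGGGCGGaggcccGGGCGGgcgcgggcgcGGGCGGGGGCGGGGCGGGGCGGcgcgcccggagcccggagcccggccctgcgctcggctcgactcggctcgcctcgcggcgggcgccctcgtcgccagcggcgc
TFRC: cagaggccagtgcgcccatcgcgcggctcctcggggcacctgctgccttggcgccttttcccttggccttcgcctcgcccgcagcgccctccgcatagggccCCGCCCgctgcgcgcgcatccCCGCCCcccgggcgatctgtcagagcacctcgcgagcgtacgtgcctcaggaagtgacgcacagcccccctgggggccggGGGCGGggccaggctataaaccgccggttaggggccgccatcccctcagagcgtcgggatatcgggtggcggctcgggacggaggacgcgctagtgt
POLE2: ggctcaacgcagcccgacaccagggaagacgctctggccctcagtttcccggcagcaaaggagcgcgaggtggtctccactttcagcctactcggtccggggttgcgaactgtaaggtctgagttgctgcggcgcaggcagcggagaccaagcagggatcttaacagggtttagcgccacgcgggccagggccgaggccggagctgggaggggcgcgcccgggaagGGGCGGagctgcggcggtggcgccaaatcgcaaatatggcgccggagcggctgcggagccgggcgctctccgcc

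These windows held 5 GC boxes in SERTAD1, 10 in INHBB, 3 in TFRC and 1 in POLE2, at 64.7%, 88.7%, 73.3% and 69% G and C. Across the 11230 tested protein-coding genes with a promoter in the table, a GC box was present in 66.2% of the 1224 that fell, 65.4% of the 595 that rose and 69.8% of all. The 3 shares were close. The TATA box TATAAA was in 9.07% of falling, 7.56% of rising and 5.71% of all promoters, and the E2F-type letters TTNGCGC in 12.2%, 12.1% and 12.7%. Over all 27305 promoters of the table the GC box was in 44.6%, the TATA letters in 11.95% and the E2F-type letters in 7.93%, searched on both strands.

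Falling and rising genes differed in structure as well as in name. The number of separate exon blocks (exons of all annotated transcripts merged) was compared across 13955 protein-coding genes, of which 11.2% fell and 5.4% rose. Of the 337 genes with 1 block, 31.5% fell. Of the 1053 with 2 to 3 blocks, 28.1% fell, against 16.2% with 4 to 6, 9.74% with 7 to 10, 7.38% with 11 to 20 and 5.76% with over 20. The median log2 fold change rose along these classes from -0.62 to 0.13. SERTAD1, INHBB and DDIT4 have 2 blocks each, while POLE2 and TFRC have 21 each. These 5 do not stand for all leading genes, whose ranges overlapped widely. The 12 largest falls had 2 to 28 blocks (median 6.5) and the 12 largest rises 1 to 35 (median 11).

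GC content moved with the same result. The median was 0.27 among transcripts with under 40% G and C and -0.50 among those with over 60%, and the share that fell was 3.89% and 23.9%. Across 13947 genes the Spearman rho of log2 fold change was -0.34 with GC content and 0.22 with the number of exon blocks, and rho between those features was -0.14. These are descriptions over genes that share libraries and composition. Within each of 3 GC bands, genes with 1 block fell more often than genes with over 20, at 14.5% against 3.35% under 45% GC, 30.8% against 6.45% between 45% and 55%, and 39.6% against 9.15% over 55%. With the GC offset, which brought rho with GC content to 0.02, the shares were 26.4% with 1 block and 5.06% with over 20.

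The gradient was present with either combination library left out. Without combination replicate 1 the share that fell went from 31.7% (1 block) to 6.84% (over 20), and without combination replicate 2 from 28.3% to 5.06%. In C4-2 given the same treatment, 16.8% of genes with 1 block and 12.6% of those with over 20 blocks fell, and rho with exon blocks and with GC content was 0.02 and -0.00. The difference between the lines in this gradient was not tested.

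**Figure D3:**
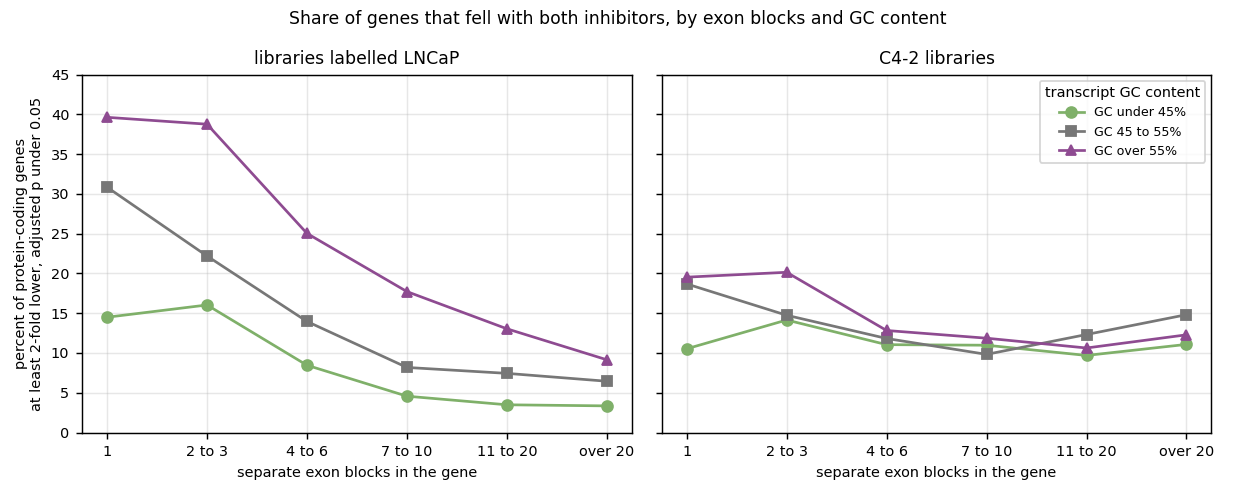
Percent of protein-coding genes at least 2-fold lower with both inhibitors (adjusted p under 0.05) by number of exon blocks, in 3 bands of transcript GC content, for the libraries labelled LNCaP (left) and C4-2 (right). On the left, 39.6% of the 1-block genes over 55% GC fell against 9.15% of those with over 20 blocks; on the right the matching shares are 19.5% and 12.3%.

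Replication-dependent histone genes, mostly without introns, encode transcripts that usually end without a poly(A) tail, so polyA capture sees only part of them. Of 22 listed, 9 were tested, 7 were lower, all at least 2-fold, and 0 were higher (0 at an unadjusted p under 0.05 and 0 by DESeq2), with a median of -1.73 against -0.00489 over all genes. H2BC12 was at 19.8 and 14.9 CPM and then at 3.40 and 3.999 CPM (-2.22, SE 0.20, edgeR adjusted p 4.47e-11). H2AC6 and H4C8, annotated with 2 and 3 exon blocks, fell by 2.08 and 2.07 on the log2 scale. Restricted to genes with a mean of at least 5 CPM, 4 members remained called lower. Histone paralogs share near-identical stretches, so single members are uncertain.

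The targets of the inhibitors are described next. KDM1A was at 124 and 115 CPM with R1881 and then at 151 and 174 CPM (0.45, SE 0.11, edgeR adjusted p 0.000509). KDM7A was at 59.8 and 66.7 CPM and then at 60.2 and 56.6 CPM (-0.12, SE 0.11, edgeR adjusted p 0.389), with overlapping groups. The KDM1A transcript thus rose by less than 2-fold and no change was detected for KDM7A, whose value was -0.37 with the GC offset (edgeR adjusted p 0.00232). Over 26 tested demethylases and KDM1A partners, 8 were higher and 6 lower, shares near those of all genes, and without R1881 replicate 1 only 4 were higher.

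KDM1B, the other flavin-dependent lysine 4 demethylase, was the 1 member past 2-fold, from 34.5 and 36.3 CPM to 71.9 and 74.1 CPM (1.04, SE 0.11, edgeR adjusted p 2.11e-09). Other demethylase genes, among them the further TCE-5002 targets KDM2A and PHF8, moved by less than 2-fold in either direction. KDM5B, a demethylase of trimethylated lysine 4, went from 125 and 123 CPM to 64.5 and 60.3 CPM (-0.99, edgeR adjusted p 1.27e-09), KDM2B from 80.9 and 83.3 CPM to 49.7 and 45.9 CPM, and KDM2A from 133 and 123 CPM to 88.9 and 77.6 CPM. PHF8 rose by 0.38 (SE 0.10, edgeR adjusted p 0.00185), and the deacetylase gene HDAC2 rose by 0.51. HMG20B, a member of the CoREST complex, fell by 0.96.

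Of 22 tested genes of the androgen response list, 13 were lower, 9 of them at least 2-fold, and 2 were higher, with a median of -0.61. KLK3 went from 412 and 368 CPM to 139 and 93.4 CPM (-1.75, SE 0.13, edgeR adjusted p 5.95e-13). KLK2, a neighbouring kallikrein gene, went from 85.8 and 66.3 CPM to 27.4 and 19.4 CPM, and KLK4 from 26.3 and 20.97 CPM to 11.5 and 8.87 CPM. All 3 kallikrein genes had groups that did not overlap, as did 77.6% of all genes. TMPRSS2, an androgen-induced serine protease, fell by 0.70 (SE 0.12, edgeR adjusted p 1.49e-05) and the pioneer factor FOXA1, which overlaps TTC6, by 0.94 (SE 0.12, edgeR adjusted p 4.46e-08). NDRG1 rose, from 160 and 165 CPM to 320 and 285 CPM. Combination replicate 2 lay below replicate 1 in KLK2, KLK3, KLK4 and TMPRSS2, and without replicate 1 the KLK3 change was -2.07. Without combination replicate 2, 4 members of the list were higher in place of 2.

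Transforming growth factor beta and activins bind paired receptor kinases that phosphorylate SMAD2 and SMAD3, which join SMAD4 and induce matrix genes along with their own inhibitors. Of 37 tested pathway members 18 were lower, 11 at least 2-fold, and 6 were higher, with a median of -0.38. Without combination replicate 1 the counts were 18 lower and 5 higher, and without R1881 replicate 1 the number higher was 2. Of the 5 ligand genes, INHBB fell most. TGFB2 went from 1.83 and 2.17 CPM to 0.65 and 0.38 CPM (-1.96, SE 0.47, edgeR adjusted p 0.000644) and TGFB3 from 6.22 and 6.41 CPM to 2.22 and 3.12 CPM, while TGFB1 (-0.25, edgeR adjusted p 0.22) and INHBA (0.17, edgeR adjusted p 0.691) did not pass.

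The latent binding proteins, which store the ligands in the matrix, split. LTBP3 went from 90.04 and 84.2 CPM to 38.7 and 28.7 CPM (-1.37, SE 0.12, edgeR adjusted p 4.72e-11) and LTBP1 fell by 0.98, whereas LTBP2 rose from 3.52 and 4.52 CPM to 6.47 and 6.52 CPM. Among receptors, ACVR2A fell by 1.01 and TGFBR1 by 0.53, and ACVR1B rose by 0.28. The SMAD genes divided too, with SMAD3 lower by a log2 fold change of -0.70 and SMAD2 and SMAD4 higher by 0.32 and 0.41.

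Of 8 feedback inhibitors 5 were lower and 0 higher (0 at an unadjusted p under 0.05 in edgeR and 0 by DESeq2). BAMBI, a decoy receptor, went from 18.3 and 19.04 CPM to 5.75 and 5.70 CPM (-1.71, SE 0.17, edgeR adjusted p 5.5e-10). SKI, a repressor of SMAD transcription, went from 136 and 142 CPM to 52.8 and 50.3 CPM (-1.43, SE 0.11, edgeR adjusted p 7.59e-13). PMEPA1 fell by 1.07 and SMAD7 by 0.91, with SKIL (0.02), SMURF1 (0.13) and SMURF2 (-0.06) near their control level and past no threshold. Targets went both ways, since JUNB fell by 1.62, THBS1 by 1.91, CCN2 by 1.02 and COL4A2 by 0.86, and tenascin C (TNC) rose from 24.6 and 28.6 CPM to 46.8 and 43.5 CPM (0.76, SE 0.13, edgeR adjusted p 4.07e-06) with COL4A1 higher by 0.34.

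The related bone morphogenetic protein list had 10 of 17 tested members lower, 6 at least 2-fold, and 1 higher, with a median of -0.67. Its ID targets, which encode inhibitors of basic helix-loop-helix factors, were lower in 4 of 4. ID1 was at 14.3 and 7.59 CPM and then at 2.42 and 3.23 CPM (-1.94, SE 0.26, edgeR adjusted p 1.25e-07), a case where the R1881 libraries differed from each other. ID3 fell by 1.10, ID2 by 0.79 and ID4 by 0.74. GDF15, a secreted stress-responsive ligand, went from 269 and 266 CPM to 100.8 and 77.6 CPM, and BMP4 from 10.9 and 10.5 CPM to 4.83 and 3.23 CPM.

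Notch receptors are activated by ligands on a neighbouring cell and switch on HES and HEY repressors. Of 16 tested members 13 were lower, 7 at least 2-fold, and 0 higher (1 at an unadjusted p under 0.05 in edgeR and 0 by DESeq2), with a median of -0.89. NOTCH1 (chromosome 9, 136494444 to 136545862) went from 128 and 136 CPM to 38.3 and 26.4 CPM (-2.04, SE 0.13, edgeR adjusted p 1.57e-14), and its ligand gene JAG1 from 20.7 and 21.5 CPM to 6.60 and 5.53 CPM (-1.80, SE 0.17, edgeR adjusted p 1.22e-10). All 7 targets were lower. HES4 fell by 1.20, HES1 by 1.06 and HEY1 by 1.04. The median GC content of these transcripts was 60.7% against 48.5% over all genes, and with the GC offset 9 were lower and 3 higher, with a median of -0.33.

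WNT ligands act through Frizzled receptors on TCF and LEF transcription factors. Of 19 tested members 14 were lower, 8 at least 2-fold, and 0 higher (0 at an unadjusted p under 0.05 in edgeR and 0 by DESeq2), with a median of -0.82. With the GC offset 12 were lower and 1 higher, with a median of -0.75. FZD1 went from 31.4 and 30.5 CPM to 9.60 and 10.6 CPM (-1.61, SE 0.15, edgeR adjusted p 5.01e-11). WNT5B went from 14.1 and 13.9 CPM to 5.29 and 3.78 CPM, and FZD2 and the feedback inhibitor NKD1 fell by 1.48 and 1.28. LEF1 stood at 0.02 and did not pass.

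**Figure D4:**
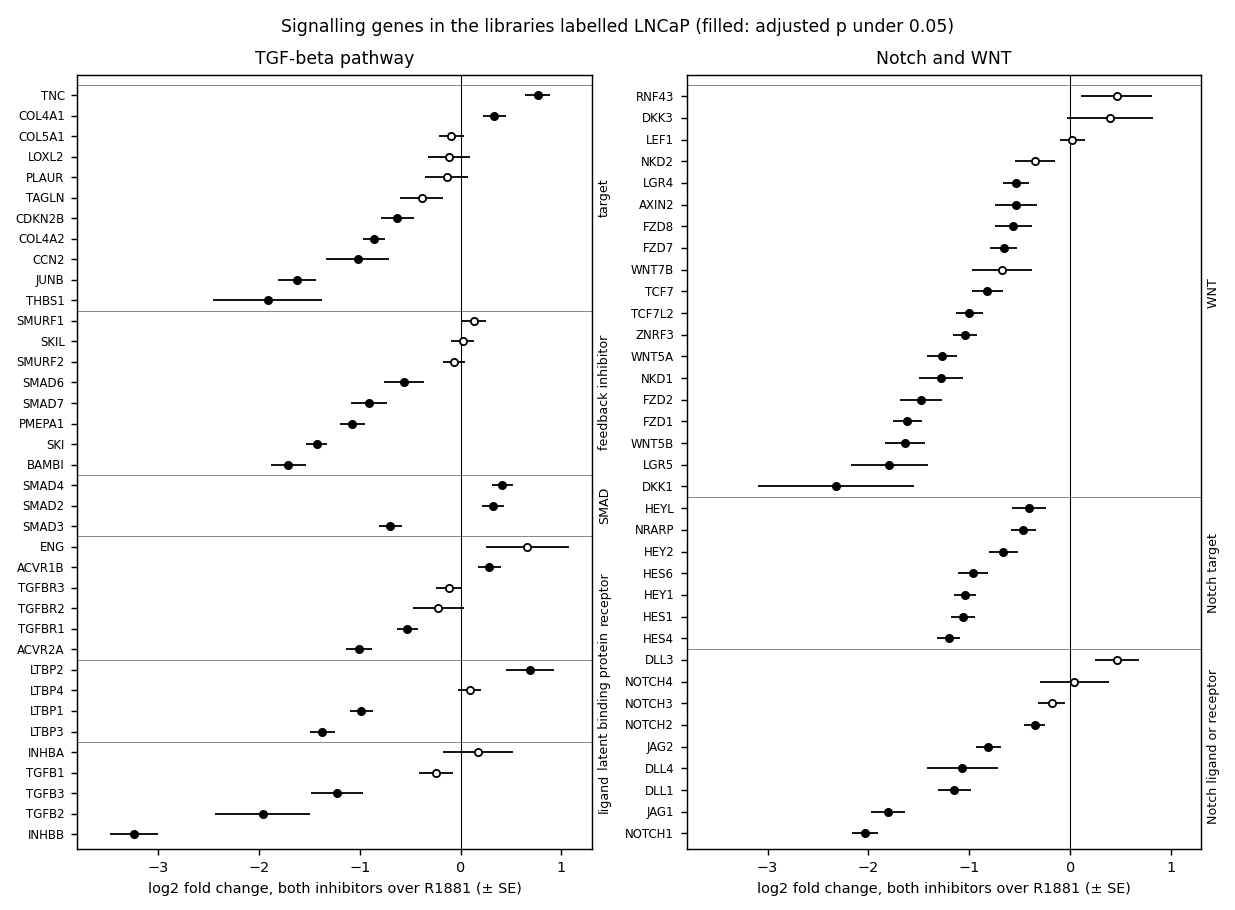
Log2 fold change (both inhibitors over R1881, libraries labelled LNCaP) with its SE for each tested member of the TGF-beta pathway (left) and of the Notch and WNT lists (right), grouped by role, with filled points for an adjusted p under 0.05. INHBB lies lowest on the left at -3.23, and on the right no filled point lies above 0.

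Immediate-early genes, which growth factor signals induce within minutes, were lower in 9 of 13 and higher in 1, with a median of -1.03. FOS was at 23.4 and 11.1 CPM and then at 3.59 and 4.16 CPM (-2.14, SE 0.24, edgeR adjusted p 5.7e-09), and EGR1 at 40 and 21.02 CPM and then at 7.19 and 9.15 CPM (-1.89, SE 0.20, edgeR adjusted p 1.3e-09). In both genes R1881 replicate 1 was about as far above R1881 replicate 2 as in ID1. Their groups did not overlap, which held for 77.6% of all genes. KLF6 rose by 0.61. Of 11 tested NF-kB and inflammatory genes 5 were lower and 0 higher (0 at an unadjusted p under 0.05 in edgeR and 0 by DESeq2, but 6 lower and 2 higher with the GC offset), among them the pathway inhibitors NFKBIA (-1.17) and TNFAIP3 (-1.39). Without combination replicate 2, 1 gene of that list was higher.

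Matrix and adhesion genes went both ways, with 17 of 41 lower and 7 higher. Of 10 tested collagen genes 5 were lower (2 at least 2-fold) and 2 higher (1 at least 2-fold). The collagen V chain gene COL5A2 fell by 1.65, while COL5A1 did not pass (-0.09, edgeR adjusted p 0.565). The crosslinking enzyme LOX fell by 1.69. The integrin subunit gene ITGA10 went from 12.02 and 9.85 CPM to 0.91 and 1.04 CPM (-3.47, SE 0.27, edgeR adjusted p 2.59e-12). ITGB4 fell by 3.01. The integrin gene ITGA3 rose by 0.83. Without R1881 replicate 1, 3 members were higher in place of 7.

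Genes of protein synthesis moved upward together. Of 36 ribosomal protein genes 30 were higher, 5 at least 2-fold, and 1 lower, with a median of 0.66, and with the GC offset 31 were higher. RPL11 went from 444 and 460 CPM to 1097 and 1285 CPM (1.40, SE 0.12, edgeR adjusted p 9.3e-12), and RPL5 from 1285 and 1451 CPM to 2950 and 3554 CPM. RPS2 was the exception, lower by a log2 fold change of -0.44. Ribosomal protein genes have many processed copies in the genome, so their counts are uncertain. RPL22L1, a paralog of RPL22, rose from 31.8 and 38.4 CPM to 133 and 188 CPM (2.20, SE 0.13, edgeR adjusted p 4e-15).

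The integrated stress response, in which ATF4 induces genes of amino acid supply, had 20 of 38 members higher and 11 lower, and its 14 genes of amino acid supply went both ways, with 7 higher and 5 lower. Of 12 aminoacyl-tRNA synthetase genes 11 were higher and 0 lower (0 at an unadjusted p under 0.05 in edgeR and 0 by DESeq2), at a median of 0.63, and 12 were higher with the GC offset. NARS1 went from 140 and 142 CPM to 305 and 317 CPM (1.14, SE 0.10, edgeR adjusted p 5.57e-11) and GARS1 from 230 and 251 CPM to 510 and 475 CPM. Asparagine synthetase (ASNS) rose from 225 and 262 CPM to 712 and 702 CPM (1.54, SE 0.11, edgeR adjusted p 5.74e-13) and the factor DDIT3, which overlaps MARS1, by 1.21.

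Other members of the same list fell. SLC7A5, the light chain of a leucine transporter, went from 953 and 902 CPM to 407 and 310 CPM (-1.37, SE 0.12, edgeR adjusted p 3.2e-11). SESN2, a leucine sensor that restrains mTORC1, went from 460 and 457 CPM to 180 and 145 CPM (-1.50, SE 0.11, edgeR adjusted p 1.01e-12), and CHAC1, which degrades glutathione, fell by 1.58. With DDIT4 these are leading genes on the lower side. A list of amino acid and creatine carriers had 5 of 15 tested members higher and 5 lower, with a median of 0.03. Its largest change was the rise of SLC6A6 (2.50), and SLC1A3 rose by 0.92, while SLC1A4 and SLC6A9 fell by 1.24 each and SLC6A8 by 1.21.

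DNA replication genes were higher in 25 of 40 and lower in 4, with a median of 0.50. The primase gene PRIM1 went from 31.8 and 39.2 CPM to 120 and 137 CPM (1.85, SE 0.12, edgeR adjusted p 1.89e-14), the helicase subunit MCM6 from 76.4 and 89.5 CPM to 195 and 185 CPM, and the dUTPase gene DUT rose by 1.21. FEN1, which trims Okazaki fragments, has 2 exon blocks and overlaps FADS2 and TMEM258, went the other way, from 321 and 307 CPM to 116 and 114 CPM (-1.45, SE 0.10, edgeR adjusted p 3.79e-13). RRM2 and CDT1 fell by 0.90 and 0.86. Of 21 cell cycle inhibitors and cyclins 11 were lower, with CCNE1, a G1/S cyclin, at 37.9 and 31.1 CPM and then at 8.75 and 11.8 CPM, and CDKN2C lower by 1.38. CDK2 and RB1 rose by 0.83 and 0.90.

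Mitotic genes were higher in 17 of 33 and lower in 6. HMMR went from 35.0 and 44.1 CPM to 98.1 and 125 CPM (1.499, SE 0.12, edgeR adjusted p 6.83e-12), ECT2 rose by 1.23 and BUB1B by 1.02, while the proliferation marker MKI67 fell from 552 and 695 CPM to 370 and 348 CPM (-0.79, SE 0.12, edgeR adjusted p 5.7e-07) and FOXM1 by 0.70. In C4-2 the same treatment left 1 of these 33 genes higher and 32 lower. The effects differed between the lines at least 2-fold in 29 of 33 by the interaction test, against 25.3% of all genes. The p53 target list showed the opposite order, with 5 of 31 higher and 16 lower in the libraries labelled LNCaP and 28 higher and 0 lower in C4-2 (1 lower at an unadjusted p under 0.05 in edgeR), and 24 of 31 differed. Without either R1881 replicate, 3 p53 targets were higher in place of 5. Among its members SESN2, AEN (-1.37) and GADD45B (-1.29) fell and CCNG1 rose by 0.97.

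Mitochondrial transcripts were listed apart for the nuclear and the mitochondrial genome. Of 39 nuclear-encoded respiratory chain genes 24 were higher and 3 lower, with a median of 0.40. NDUFS4 went from 16.8 and 17.6 CPM to 39.4 and 48.0 CPM (1.35, SE 0.13, edgeR adjusted p 3.44e-10), and SDHB and NDUFB5 rose by 1.10 and 1.09. Of the 13 transcripts of the mitochondrial genome 8 were lower and 2 higher. Their summed share of all counts did not separate the groups. It was 2.43% and 1.91% with R1881 and 2.11% and 2.13% with the combination. MT-CYB went from 1755 and 1391 CPM to 700.4 and 679.8 CPM (-1.19, SE 0.12, edgeR adjusted p 8.33e-10), whereas MT-CO1 went from 2757 and 2208 CPM to 3737 and 3898 CPM (0.62, SE 0.13, edgeR adjusted p 0.000149). Without R1881 replicate 1, the higher of the controls, 4 were lower in place of 8, and without R1881 replicate 2 only 1 was higher.

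The lysosomal list was higher in 21 of 41 and lower in 9. In the proton pump alone 10 of 15 subunit genes were higher, ATP6V1C1 from 38.7 and 42.7 CPM to 108 and 110 CPM (1.42, SE 0.11, edgeR adjusted p 1.73e-12) and ATP6V1E1 from 44.1 and 55.04 CPM to 85.8 and 107 CPM. ATP6V0C fell by 1.15. NPC2, which carries cholesterol out of the lysosome, rose by 1.43. Targets of the antioxidant factor NRF2 were higher in 8 of 15 and lower in 3, including SRXN1 (-1.49, edgeR adjusted p 5.62e-05), with the oxidoreductase NQO1 at 7.33 and 8.01 CPM and then at 21.2 and 18.6 CPM and TXNRD1 higher by 1.11, while KEAP1, which holds NRF2 inactive, went from 153 and 155 CPM to 66.4 and 55.5 CPM (-1.34, SE 0.11, edgeR adjusted p 5.43e-12).

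Genes of the heat shock list, which holds chaperones and the transcription factor gene HSF1, were higher in 10 of 15 and lower in 4. HSPA4, HSPA8 and HSP90AB1 rose by 1.25, 1.07 and 1.02, and the co-chaperones BAG3 and DNAJB1 fell by 1.38 and 1.26. HSF1 and HSPB1 were lower by log2 fold changes of -0.35 and -0.28 and changed sign with the GC offset, to 0.26 and 0.31. Without R1881 replicate 2 or without combination replicate 2 the number lower was 2. The glucose transporter SLC2A1 went from 166 and 176 CPM to 61.6 and 56.0 CPM (-1.54, SE 0.11, edgeR adjusted p 1.62e-13), in a glycolysis and hypoxia list with 14 of 34 lower and 6 higher (3 higher without R1881 replicate 1).

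Of 19 tested genes of the DNA methylation and Polycomb list 8 were higher and 5 lower. CBX2, whose product reads trimethylated lysine 27 in Polycomb complex 1, went from 150.2 and 133 CPM to 48.0 and 42.8 CPM (-1.64, SE 0.11, edgeR adjusted p 8.52e-14), and its relative CBX8 fell by 1.358. EED and SUZ12, core subunits of Polycomb complex 2, rose by 1.06 and 0.51. Without R1881 replicate 1 the number higher was 5. Among tubulins, TUBB4B went from 785 and 797 CPM to 212 and 187 CPM (-1.99, SE 0.11, edgeR adjusted p 1.78e-15), while TUBA1B rose by 0.75. BHLHE40, a repressor in the clock list, went from 259 and 242 CPM to 63.2 and 59.8 CPM (-2.03, SE 0.11, edgeR adjusted p 2.36e-16).

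Without combination replicate 1, 25.4% of all genes were higher and 26.7% lower in edgeR. The lists that lay mostly on the lower side then had 13 lower and 2 higher (androgen response), 10 and 1 (bone morphogenetic protein), 14 and 0 (Notch), 13 and 0 (WNT), 7 and 0 (histones) and 6 and 0 (NF-kB). Matrix genes had 21 lower and 6 higher, p53 targets 16 and 5, cell cycle inhibitors and cyclins 13 and 4, glycolysis and hypoxia 14 and 6, transcripts of the mitochondrial genome 8 and 2, and immediate-early genes 11 and 1. On the higher side, ribosomal proteins had 31 higher and 1 lower, the respiratory chain 25 and 3, DNA replication 25 and 6, mitosis 20 and 6, the lysosome 19 and 10, the integrated stress response 18 and 13, heat shock 10 and 4, NRF2 targets 9 and 4, and DNA methylation and Polycomb 8 and 5. Demethylases and partners had 8 higher and 8 lower, and the amino acid and creatine carriers 5 and 6. No list named here changed its larger side except the carriers, which went from even to 1 more lower, and the demethylases, which became even.

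**Figure D5:**
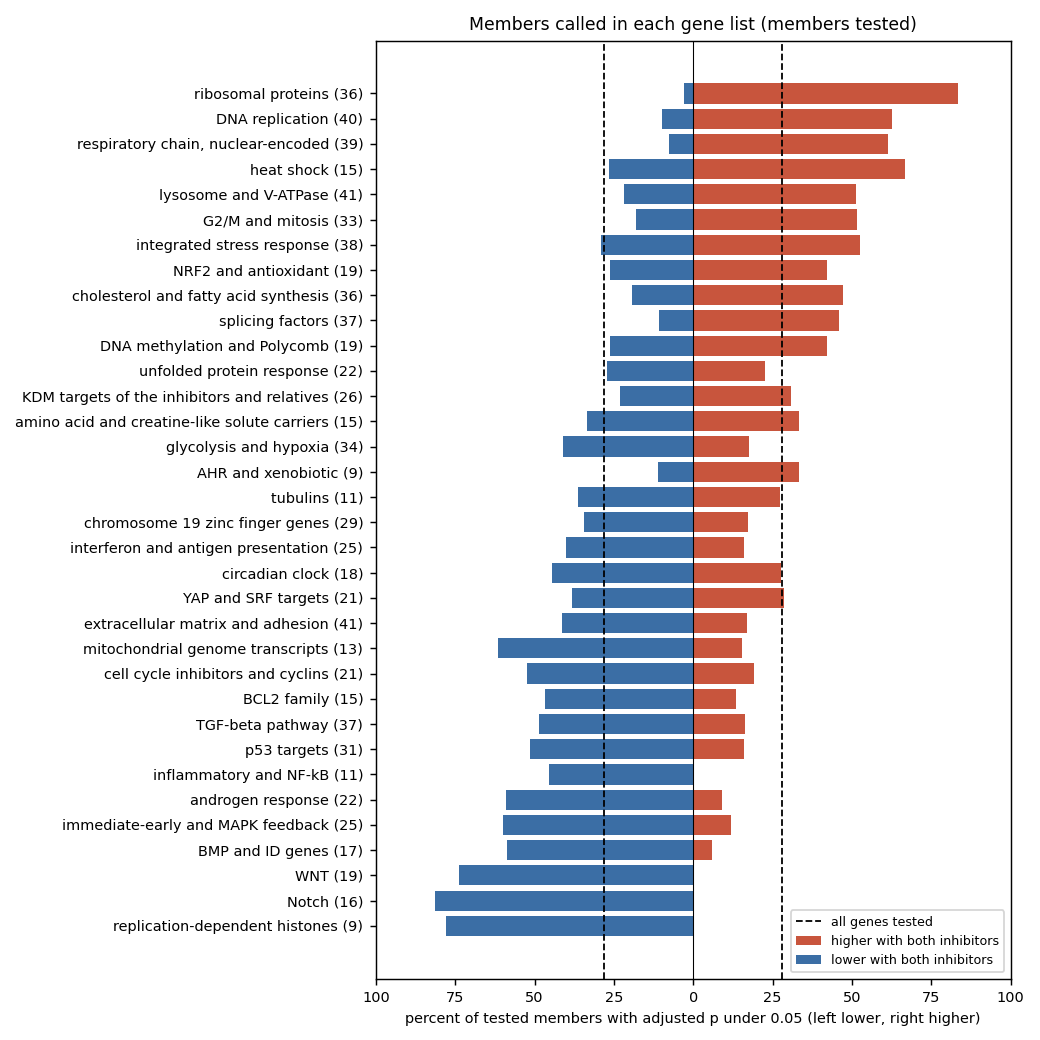
Percent of tested members of each gene list with an adjusted p under 0.05, higher to the right and lower to the left, for the 34 lists with at least 9 tested members, ordered by median log2 fold change, with dashed lines at the 28% and 28.2% of all genes. Ribosomal proteins lie at one end, with 30 of 36 higher, and the replication-dependent histones, Notch and WNT lists at the other, with 0 higher in each.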

How the data were processed

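Per the study's methods, the authors captured polyadenylated RNA, sequenced paired ends, kept reads of high base quality, trimmed adapters with Trim Galore and aligned to GRCh38 with STAR. They then counted fragments per gene with featureCounts 1.5.0 and the Ensembl 83 annotation (per the file headers), and each deposited file holds 1 library of raw whole-number counts. Counting used no strand setting, so a gene and an overlapping gene on the other strand could not be told apart.

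The counts of the 4 libraries were analysed here with edgeR 4.0.16 in R 4.3.3 (filterByExpr, TMM scaling, quasi-likelihood F test, p-values adjusted by Benjamini-Hochberg across the whole table). The threshold was an adjusted p-value below 0.05 together with a change of 1 or more on the log2 scale. The SE was obtained by dividing the size of the log2 change by the root of F. The effect was set against that in C4-2 by an interaction of line and treatment on 8 libraries. In simulated counts, 200 genes were given a log2 change of 2. The steps recovered 99% of them for the treatment effect (17184 genes tested) and 91% for the difference between lines (19091 genes tested). Genes with low simulated counts were kept out of the 200, no other gene was changed by treatment and no GC-linked shift was added. These shares therefore do not cover genes at a few CPM or the GC-linked differences seen here.

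Named genes were 7 fixed genes, then, among protein-coding genes past the threshold, the 12 largest rises and 12 largest falls that had a proper symbol, reached 10 CPM in the higher group and had combination and R1881 libraries that did not overlap. In each of 44 gene lists up to 4 members per direction with an adjusted p under 0.05, the largest changes and at least 5 CPM in the higher group were added, as was any marker or TGF-beta pathway member. The gene lists and this rule were chosen with earlier results of these data known, and the count of exon blocks, the promoter motifs, the counts of list members that differ from C4-2 and the other members named were taken up after values had been seen. Of 996 list entries 3 were unmatched or repeated. The GC offset removed, per library, a spline (df 5) of expression on the GC content of each gene's longest GENCODE 29 transcript. Alternatives also included DESeq2 1.42.0, other scalings and filters, a replicate block and leaving out each library. Values of 1 list member are not reported here.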

Additional observations from a re-analysis of the deposited data

Results flagged for a closer look

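Each value here is the log2 fold change of the combination in the libraries labelled LNCaP minus that in C4-2, and was noted because the interaction of line and treatment passed the threshold (edgeR, adjusted p under 0.05 and at least 2-fold). Over all genes 5003 of 19763 (25.3%) did. The 2 lines differ in marker profile and in label, and the part of these in the difference was not tested.

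Of the fixed genes, KDM7A differed by -1.44 and FOXA1 by 1.21. Among the 6 leading rising genes the difference was 2.95 for FAM216A, 1.17 for SLC6A6, 4.05 for CARMIL3 and 2.60 for ZNF33B. BCHE passed at 4.42 (SE 0.83), against a change of 2.32 in the libraries labelled LNCaP, and ATP6V0D2 did not pass (0.87, edgeR adjusted p 0.795). Neither of these genes had enough counts to be tested within C4-2, so the sizes of their differences are uncertain. Among the 6 leading falling genes it was -4.18 for SERTAD1, -2.54 for ITGA10, -4.25 for SNORC, -2.28 for DHRS2, -1.87 for INHBB and -2.68 for EPHB3. In the TGF-beta pathway it was -3.46 for JUNB, -2.04 for LTBP3, -1.50 for SMAD7 and -1.18 for SKI on the lower side, and 3.58 for TNC, 2.31 for LTBP2 and 1.37 for LOXL2 on the higher side. CCN2 also passed, but it had at most 3 counts over the C4-2 libraries with R1881, so no size is given.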

How the results depend on the processing

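The count of 3293 genes past the threshold (1306 higher, 1987 lower) became 1617 (571 and 1046) when genes had to average 5 CPM, where fewer genes were tested, and 9877 (4919 and 4958) with the adjusted p alone. With 1 library left out the total ranged from 2851 to 3518, with 1051 to 1328 higher and 1731 to 2190 lower. Replicate numbers gave no sign of pairing the samples, since same-numbered libraries deviated with a correlation of 0.01 (-0.13 after the GC offset). With 1 replicate difference per group and a GC-linked shift in the combination, this cannot exclude pairing. The replicate block gave 3062 genes (1201 higher, 1861 lower). The number of genes differing from C4-2 ranged from 4452 (DESeq2) to 5246 over the alternatives run for it.

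Of 270 named genes, 225 kept direction and side of the threshold under each of 14 alternatives that gave them a value, and genes under 5 CPM had none with that filter. With the GC offset, alone and with the replicate block, 4 genes changed sign. They were TK1 (0.20 and 0.20), SDF2L1 (0.0928 and 0.0927), HSF1 (0.26 and 0.26) and HSPB1 (0.31 and 0.31). The cause was not tested. Depth and 2 libraries per group limit what can be said of genes at a few CPM, such as TGFB2 and THBS1.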
